A study of Mus musculus with 6 samples.

Results

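The suppressors of cytokine signaling are a family of 8 genes in the mouse, Socs1 to Socs7 and Cish, and all 8 were found by gene name among the 23398 genes of the deposited table. Dendritic cells grown from mouse bone marrow had been exposed for 12 hours to Ca(OH)2 nanoparticles (3 libraries) or to vehicle (3 libraries), and total RNA was sequenced. Both groups were cultured in the same serum-containing medium. The labels give neither the mouse strain, the age or number of the animals, the particle dose nor the composition of the vehicle. Nothing in them states that libraries of one group came from separate cultures or animals, so the p-values below measure only the spread between these libraries, which may be technical.

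SOCS proteins are brakes on cytokine receptors that signal through Janus kinases (JAK) and STAT transcription factors. Each has an SH2 domain that binds phosphorylated tyrosines and a C-terminal SOCS box that recruits elongins and a cullin ubiquitin ligase. Several family genes are themselves induced by the STATs they restrain, which makes them components of negative feedback loops. In dendritic cells Socs1 and Socs3 are known for limiting responses to interferons, to interleukin 6 and to microbial ligands.

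Levels are in FPKM, which counts fragments per transcript length after scaling between libraries, and recovered totals were 17286335 to 21981163 reads per library. Every member had at least 1 FPKM in all 6 libraries, so none passed the filter on low values through 1 group alone. Of the 10682 genes tested with limma, 33.2% passed a Benjamini-Hochberg adjusted p of 0.05, 17.0% as higher and 16.2% as lower with nanoparticles. This balance depends on the scaling: 51.2% of calls were higher on the deposited scale, 23.5% with libraries scaled to equal recovered read totals and 17.0% with equal FPKM sums. Nanoparticle library 1 stood apart, with 42.2% of tested genes more than 1.5-fold from the mean of nanoparticle libraries 2 and 3, and each member is therefore given with and without it. In bulk RNA, fewer cells of a type and less RNA per cell cannot be told apart.

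The family split with treatment. Socs1, Socs3 and Cish rose, Socs5, Socs6 and Socs7 fell, and Socs2 and Socs4 did not pass the test. Thus 6 of 8 members were called, against 33.2% of all tested genes, and the median log2 change of the 8 was -0.25 against -0.0010 for all tested genes. The libraries of the groups did not overlap for 7 members, where this held for 52.1% of tested genes. With nanoparticles 3 of these were higher and 4 lower, against 25.9% and 26.2% of tested genes. Without nanoparticle library 1 the same 3 members were higher and the remaining 5 were all lower past the threshold, in a fit that called 64.8% of all tested genes.

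**Figure D1:**
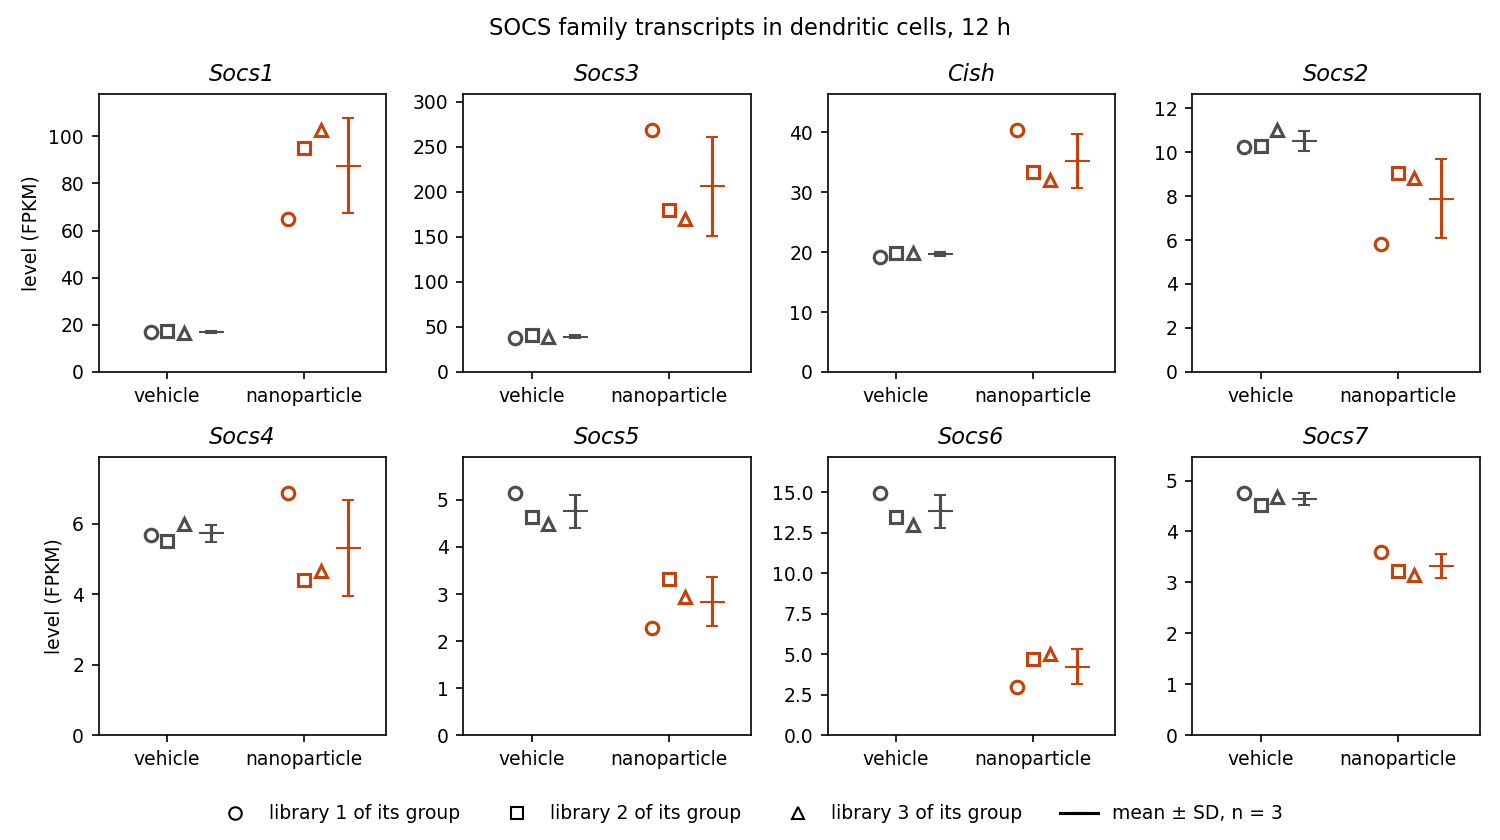
Levels of the 8 SOCS family transcripts in FPKM on linear axes that start at 0, each symbol 1 library, with the mean and SD of 3 libraries beside them. Socs1, Socs3 and Cish lie higher in every nanoparticle library than in any vehicle library, Socs2, Socs5, Socs6 and Socs7 lie lower, and Socs4 overlaps.

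Socs1, whose protein binds and blocks Janus kinases directly through a short inhibitory region and restrains interferon signaling, rose about as steeply as Socs3. The gene (ENSMUSG00000038037, protein coding) spans chr16:10782240-10785536 of GRCm38, minus strand. Socs1 stood at 16.9, 17.6 and 16.6 FPKM in vehicle libraries 1 to 3 and at 64.8, 95.03 and 103 FPKM in nanoparticle libraries 1 to 3. The vehicle libraries were close together, the groups were far apart, and nanoparticle library 1 was the lowest of its group. The means were 17.0 ± 0.479 and 87.5 ± 20.03 FPKM (SD, n = 3 each), a 5.14-fold difference. On the log2(FPKM + 1) scale the change was 2.27 (SE 0.185, 95% confidence interval 1.82 to 2.72, limma adjusted p = 3.8e-04), and it was 2.47 without nanoparticle library 1. These values rest on 977 to 5758 recovered reads per library.

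Socs3, which carries the same kind of kinase inhibitory region and is the main brake on receptors that use the gp130 chain, had the highest FPKM of the members in both groups. In vehicle this order depends on the transcript length used, since on principal transcript lengths Socs2 would be at 45.0 and Socs3 at 44.4 FPKM. Its gene (ENSMUSG00000053113, protein coding) spans chr11:117966079-117970047, minus strand. Vehicle libraries 1 to 3 held 37.5, 41.1 and 39.1 FPKM of Socs3 and nanoparticle libraries 1 to 3 held 269, 179.6 and 169 FPKM. Here nanoparticle library 1 was the highest, the reverse of Socs1. The means were 39.2 ± 1.79 and 206 ± 54.7 FPKM (SD, n = 3 each), a 5.25-fold difference. The log2 change was 2.33 (SE 0.194, 95% confidence interval 1.86 to 2.80, limma adjusted p = 4.1e-04) and 2.13 without nanoparticle library 1, over 2160 to 12683 reads per library. Socs3 and Socs1 ranked 230 and 244 from the top of the 10682 tested genes by log2 change, and 312 genes (2.92%) had a log2 change of at least 2.

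The stretches before the transcription starts of these 2 strongly induced members are shown because they hold short motifs of the pathways the SOCS proteins restrain. The search covered 4 of the 8 members (Cish, Socs1, Socs3 and Socs4), with windows from the RefSeq promoter table (GRCm38.p6). For these the 250 bases before each start were searched on both strands, and the other members were not searched. Capitals mark matches to the interferon response motif (GAAA, 2 bases of any kind, GAAA) or to the STAT motif TTCNNNGAA. Socs1 is chr16:10785537-10785786 and Socs3 is chr11:117969367-117969616, both on the minus strand and written 5′ to 3′.
Socs1: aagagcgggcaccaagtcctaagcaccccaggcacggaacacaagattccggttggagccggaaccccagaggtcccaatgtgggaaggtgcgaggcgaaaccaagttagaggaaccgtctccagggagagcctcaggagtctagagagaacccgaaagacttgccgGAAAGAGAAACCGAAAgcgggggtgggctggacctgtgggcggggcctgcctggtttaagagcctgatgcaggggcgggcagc
Socs3: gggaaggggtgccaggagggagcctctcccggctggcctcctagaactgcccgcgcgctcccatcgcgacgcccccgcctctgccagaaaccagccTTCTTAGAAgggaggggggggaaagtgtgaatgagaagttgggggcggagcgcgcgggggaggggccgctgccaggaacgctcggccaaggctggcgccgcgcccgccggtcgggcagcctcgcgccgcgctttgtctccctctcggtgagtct

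The Socs1 stretch held 2 overlapping interferon motifs, GAAAGAGAAA from base -83 to -74 and GAAACCGAAA from base -77 to -68, counted back from the start. Of 32851 RefSeq windows of this length, 2.98% held at least 1 such motif and 0.18% held 2 or more. Socs3 had 1 STAT motif, TTCTTAGAA from base -154 to -146, as did 7.02% of windows with at least 1. This Socs3 window lies before the start of the coding transcript in GENCODE M21 and overlaps an exon of a short noncoding transcript there. The Cish and Socs4 windows matched neither motif, and the Cish window lies inside an exon of a longer GENCODE transcript, not before every annotated start. For NF-kappaB, a narrow motif (GGG, 2 bases of any kind, TTTCC), which 1.41% of windows held, matched none of the 4. A wide one (GGG, 5 bases of any kind, CC), which 45.8% of windows held, matched 3 times in Socs1 and 1 time each in Cish, Socs3 and Socs4. A match is a description of the letters in a window, and the absence of one says nothing about the factor.

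Cish, a family member that binds STAT5 docking sites on cytokine receptors and is a classical STAT5 target, rose less than Socs1 and Socs3 but with little spread. Its gene (ENSMUSG00000032578, protein coding) spans chr9:107296026-107302784, plus strand, where 2 antisense gene models overlap it, and whether counting used strand is not given in the sources used here. Cish was measured at 19.3, 19.9 and 19.8 FPKM in vehicle libraries 1 to 3 and at 40.4, 33.4 and 31.998 FPKM in nanoparticle libraries 1 to 3. All nanoparticle libraries were higher than all vehicle libraries, and nanoparticle library 1 was again the highest. The mean went from 19.6 ± 0.324 to 35.3 ± 4.52 FPKM (SD, n = 3 each), a 1.80-fold difference with a log2 change of 0.81 (SE 0.118, 95% confidence interval 0.52 to 1.09, limma adjusted p = 0.0032). The change was 0.71 without nanoparticle library 1. With libraries scaled to equal FPKM sums, which moved the median of all genes to -0.38, Cish was 0.35 higher and no longer past the threshold (limma adjusted p = 0.126), still 0.74 above that median.

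Socs2, the other classical STAT5 target of the family and a brake on growth hormone signaling, did not rise with Cish. The gene (ENSMUSG00000020027, protein coding) spans chr10:95385362-95417180, minus strand. Vehicle libraries 1 to 3 held 10.2, 10.3 and 11.0 FPKM of Socs2 and nanoparticle libraries 1 to 3 held 5.82, 9.03 and 8.80 FPKM. Every nanoparticle library was lower than every vehicle library, yet libraries 2 and 3 were only slightly so. The means were 10.5 ± 0.442 and 7.88 ± 1.79 FPKM (SD, n = 3 each), and the log2 change of -0.39 did not pass (SE 0.167, 95% confidence interval -0.80 to 0.01, limma adjusted p = 0.1203). Without nanoparticle library 1 the difference was smaller, -0.21, but passed (limma adjusted p = 0.0246), and with libraries scaled to equal read totals it was -0.70 (limma adjusted p = 0.0127), where the median of all genes was -0.28. The ratio of Cish to Socs2 in FPKM was 1.89, 1.93 and 1.80 in vehicle libraries 1 to 3 and 6.95, 3.70 and 3.64 in nanoparticle libraries 1 to 3, a pair chosen after its values were seen and not tested.

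Socs6, which with Socs7 forms the branch of the family linked to insulin and growth factor receptor signaling, had the largest decrease. Its gene (ENSMUSG00000056153, protein coding) is on chromosome 18, where 3 other gene models overlap it on either strand. Socs6 was at 15.0, 13.5 and 13.0 FPKM in vehicle libraries 1 to 3 and at 2.99, 4.71 and 5.03 FPKM in nanoparticle libraries 1 to 3. The groups were well separated and nanoparticle library 1 was the lowest. The mean fell from 13.8 ± 1.01 to 4.25 ± 1.10 FPKM (SD, n = 3 each), 3.26-fold lower, with a log2 change of -1.52 (SE 0.175, 95% confidence interval -1.94 to -1.10, limma adjusted p = 0.0013) and of -1.33 without nanoparticle library 1. Socs6 ranked 201 from the bottom of the 10682 genes, and its values rest on 402 to 2450 reads per library.

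Socs7 fell by a smaller amount and with the smallest SE of the 8. The gene (ENSMUSG00000038485, protein coding) spans chr11:97362551-97398542, plus strand. Socs7 measured 4.75, 4.52 and 4.67 FPKM in vehicle libraries 1 to 3 against 3.59, 3.22 and 3.15 FPKM in nanoparticle libraries 1 to 3. The groups did not overlap and nanoparticle library 1 lay nearest to vehicle. Its mean went from 4.65 ± 0.118 to 3.32 ± 0.237 FPKM (SD, n = 3 each), 1.40-fold lower, a log2 change of -0.39 (SE 0.0907, 95% confidence interval -0.61 to -0.17, limma adjusted p = 0.0190). This call did not survive the loss of vehicle library 1, 2 or 3 (limma adjusted p = 0.0925, 0.0793 and 0.0914) or of nanoparticle library 2 (0.0604), while the log2 change stayed between -0.43 and -0.36.

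Socs5 and Socs4 form a pair with long N-terminal regions, known for promoting the turnover of the epidermal growth factor receptor. Only Socs5 passed. The gene (ENSMUSG00000037104, protein coding) spans chr17:87107679-87137839, plus strand. Socs5 was at 5.14, 4.64 and 4.48 FPKM in vehicle libraries 1 to 3 and at 2.27, 3.32 and 2.93 FPKM in nanoparticle libraries 1 to 3, with every nanoparticle library lower. The mean went from 4.75 ± 0.345 to 2.84 ± 0.527 FPKM (SD, n = 3 each), 1.67-fold lower, a log2 change of -0.59 (SE 0.130, 95% confidence interval -0.91 to -0.28, limma adjusted p = 0.0152). Socs5 was the thinnest member in reads (163 to 450), and its call did not survive the loss of vehicle library 1, 2 or 3 (limma adjusted p = 0.0721, 0.0610 and 0.0536).

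Socs4 (ENSMUSG00000048379, protein coding, chr14:47276931-47296102, plus strand) was the one member whose groups overlapped. It held 5.69, 5.52 and 5.996 FPKM in vehicle libraries 1 to 3 and 6.88, 4.42 and 4.66 FPKM in nanoparticle libraries 1 to 3. Nanoparticle library 1 was the highest of all 6 libraries, and nanoparticle libraries 2 and 3 were the lowest. The means were 5.74 ± 0.240 and 5.32 ± 1.35 FPKM (SD, n = 3 each), and the interval of the log2 change of -0.11 ran from -0.50 to 0.27 (SE 0.160, limma adjusted p = 0.633). Without nanoparticle library 1, Socs4 was lower by a log2 change of -0.28 that passed (limma adjusted p = 0.0124).

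**Figure D2:**
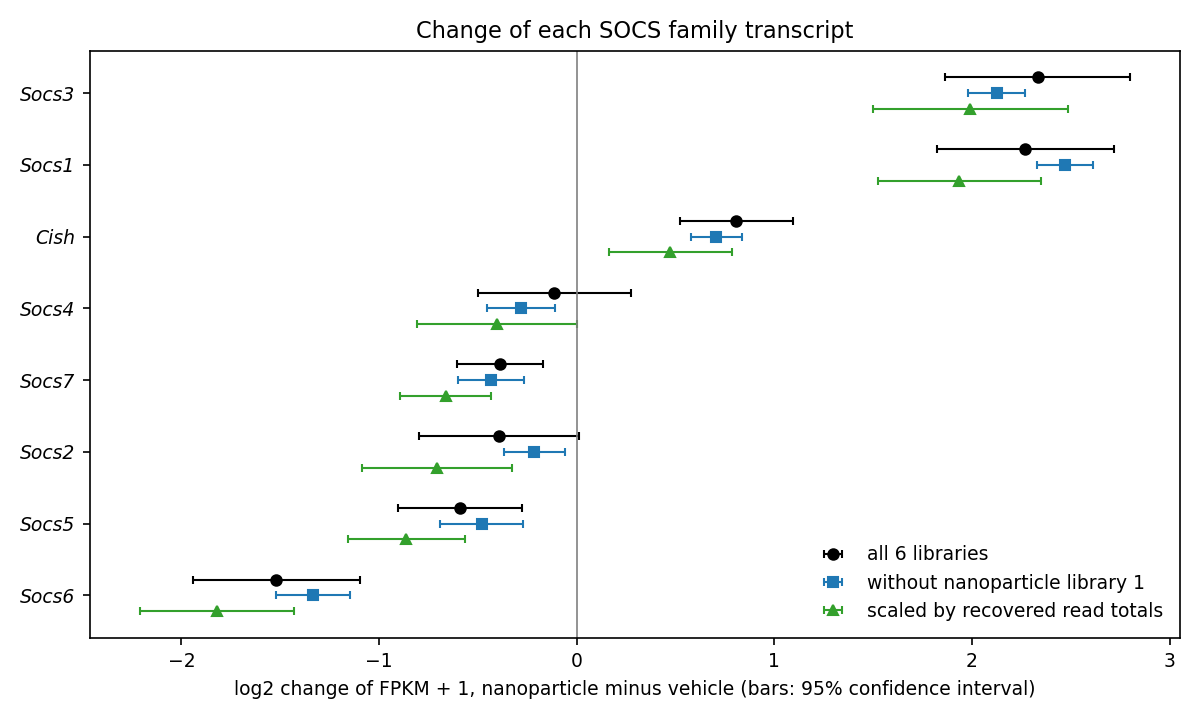
Log2 change of FPKM + 1 of each SOCS family transcript (nanoparticle minus vehicle) with its 95% confidence interval, over all 6 libraries, without nanoparticle library 1, and with libraries scaled by recovered read totals. Socs3 and Socs1 lie near 2.3, Cish at 0.81 and Socs6 at -1.52, and read-total scaling moves all 8 to the left.

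The nanoparticle libraries did not differ from each other in the same way for every member. Library 1 was more than 1.5-fold from the mean of libraries 2 and 3 for 5 of the 8 genes, where 42.2% of all tested genes were. Socs3 was 1.54-fold and Socs4 1.51-fold higher in library 1 than in the other two, and Socs1, Socs2 and Socs6 were 1.52-fold, 1.53-fold and 1.63-fold lower. Cish was 1.24-fold higher and Socs7 1.13-fold higher, and Socs5 1.37-fold lower. As log2 ratios to the vehicle mean, Socs3 was at 2.78, 2.19 and 2.11 and Socs1 at 1.93, 2.48 and 2.59 in nanoparticle libraries 1 to 3, so that the larger of both increases was that of Socs3 in library 1 and that of Socs1 in libraries 2 and 3. The ratio of Socs3 to Socs1 in FPKM was accordingly 4.14, 1.89 and 1.65 in nanoparticle libraries 1 to 3, on both sides of the 2.22, 2.34 and 2.35 of vehicle libraries 1 to 3.

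**Figure D3:**
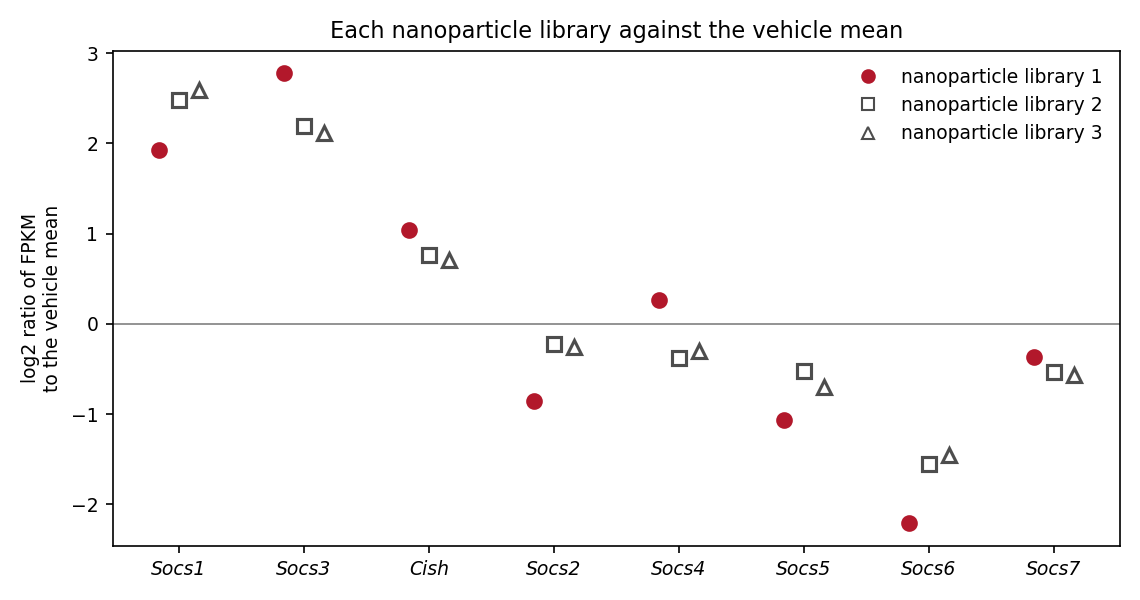
Log2 ratio of FPKM in each nanoparticle library to the vehicle mean, for the 8 SOCS family genes. Library 1 (filled circles) lies below libraries 2 and 3 for Socs1, Socs2, Socs5 and Socs6 and above them for Socs3, Cish, Socs4 and Socs7.

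Counted per length, the order of the members changed with treatment. In vehicle the order of mean FPKM was Socs3 (39.2), Cish (19.6), Socs1 (17.0), Socs6 (13.8), Socs2 (10.5), Socs4 (5.74), Socs5 (4.75) and Socs7 (4.65), and only Socs5 and Socs7, neighbours at the end, had overlapping libraries. With nanoparticles the order was Socs3 (206), Socs1 (87.5), Cish (35.3), Socs2 (7.88), Socs4 (5.32), Socs6 (4.25), Socs7 (3.32) and Socs5 (2.84). There the first 3 members were separated from their neighbours in the order, and from Socs2 downward each member overlapped the next. Socs1 passed Cish, and Socs6 moved from the fourth place to the sixth. These levels depend on gene length, which for Cish and Socs2 includes long alternative exons. On the length of the principal transcript the vehicle means of Socs2, Socs3 and Cish would be 45.0, 44.4 and 44.2 FPKM. Socs6 (18.8) would then stand above Socs1 (17.0) in vehicle. The first 5 with nanoparticles would be Socs3 (233), Socs1 (87.5), Cish (79.4), Socs2 (33.8) and Socs6 (5.79).

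The 8 transcripts summed to 115 ± 1.40 FPKM in the vehicle group (SD, n = 3) and to 352 ± 37.5 FPKM in the nanoparticle group (SD, n = 3), with no test made on this sum. Socs3 made up 34.0% ± 1.17 of the sum in vehicle and 57.8% ± 8.86 with nanoparticles, and Socs1 14.8% ± 0.253 and 25.4% ± 7.93 (SD, n = 3 each). The share of Socs1 was 16.4% in nanoparticle library 1 and 28.6% and 31.3% in libraries 2 and 3. Cish, although it rose in FPKM, went from 17.0% ± 0.217 to 10.00% ± 0.244 of the sum, and Socs6 from 12.0% ± 0.944 to 1.24% ± 0.418 (SD, n = 3 each). The other 4 members together held the rest, each at most 2.71% in a nanoparticle library. The sum and these shares depend on the gene length used, above all for Cish and Socs2, whose lengths include long alternative exons.

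**Figure D4:**
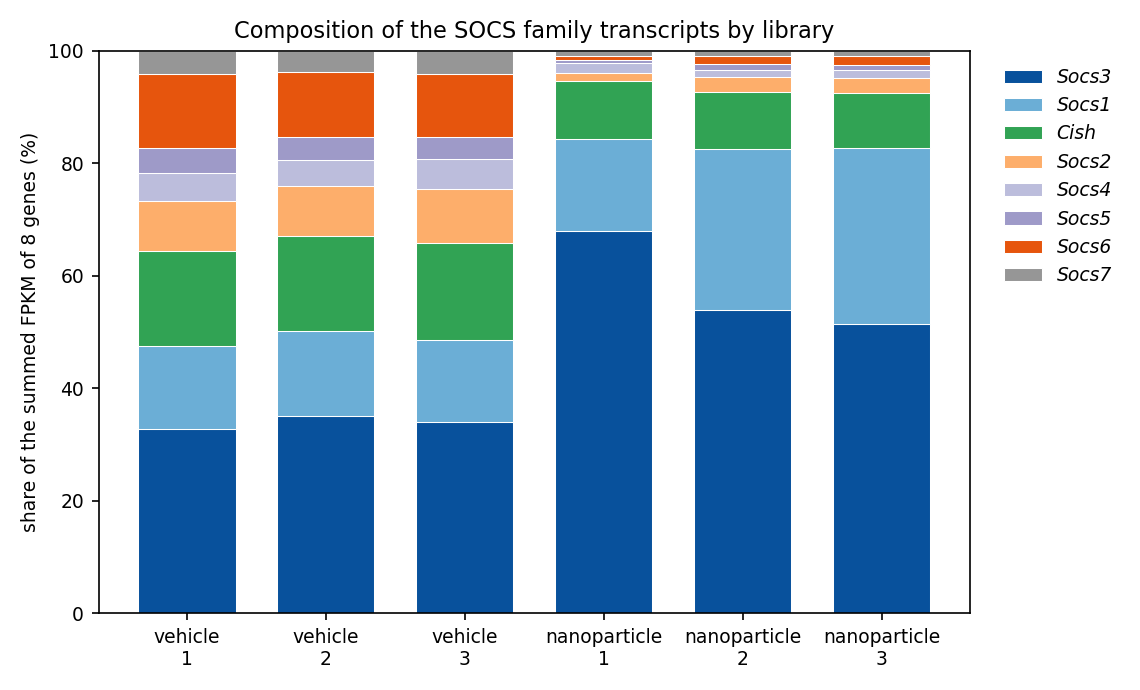
Share of each SOCS family gene in the summed FPKM of the 8 genes, 1 bar for each library. Socs3 and Socs1 take larger shares in the nanoparticle libraries, and the shares of Cish, Socs2 and Socs4 to Socs7 are smaller there. The shares depend on the gene length used.

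For each member, the 3 other tested genes with the most similar profile were taken by the root mean square difference of gene-centred log2(FPKM + 1) values over the 6 libraries. For Socs1 these were Cd70, Prdx5 and Ifi35 (0.0469, 0.0702 and 0.0888). For Socs3 they were Adora2b, Parp10 and Il23a (0.0630, 0.0648 and 0.0729). For Cish they were Tbk1, N4bp1 and Msn (0.0388, 0.0409 and 0.0430), and for Socs6 Bmt2, Mlec and Cep131 (0.0340, 0.0642 and 0.0680). Acadm, Rnf13 and Tmco1 lay closest to Socs2, Reps1, Mier1 and Supt20 to Socs4, Aggf1, G6pc3 and Wdr41 to Socs5, and Cracr2a, Stt3b and Josd1 to Socs7. Tbk1, a kinase of interferon induction, went from 16.7 to 31.1 FPKM, close to the 19.6 and 35.3 FPKM of Cish. Similarity here is on the log2(FPKM + 1) scale, which understates changes of low genes. Mean Cd70 went from 0.020 to 4.25 FPKM and Il23a from 0.0512 to 4.61 FPKM, far larger ratios than those of Socs1 and Socs3. Both had passed the filter through the nanoparticle libraries alone, and Cep131 and Cracr2a through the vehicle libraries alone.

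Around the SOCS family, 123 further genes of the cytokine pathway were followed, of which 101 passed the filter, 41 were higher and 9 lower past the threshold, against 17.0% higher and 16.2% lower among all tested genes. Some of them passed the filter through the nanoparticle libraries alone and had to differ. These were 8 ligands, 2 receptors, 1 STAT gene and 2 other SOCS box genes. The receptor gene Lepr passed through the vehicle libraries alone and had to be lower. The counts and medians below therefore describe the lists and support nothing. Cytokines that signal through JAK and STAT include the inducers of SOCS genes. Of 20 such ligand genes in the table, 11 were tested and all 11 were higher. Il6, which signals through the gp130 chain that Socs3 restrains, reached 383, 290.02 and 264 FPKM in nanoparticle libraries 1 to 3. Most of the tested ligand genes, Il6 among them, were highest in nanoparticle library 1, though not Il27 or Csf2, the latter named after its values were seen. Il27, Il12b, Csf3 and Il12a were at 33.1 ± 3.72, 222 ± 71.04, 36.7 ± 10.7 and 9.92 ± 3.27 FPKM with nanoparticles (SD, n = 3 each), and all were under 1 FPKM in each vehicle library.

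Among 23 tested receptor genes, 9 were higher, 4 lower and 10 not called, with a median log2 change of 0.41. The increases included Csf3r (1.71), Il2rg (0.98), Ifngr2 (0.85) and Il10rb (0.76), and the decreases Lepr (-1.08), in log2 units. Receptor partners of Socs3 and Socs1, named after their values were seen, went both ways. The gp130 gene Il6st and the interferon gamma receptor gene Ifngr1 had log2 changes of -0.83 (limma adjusted p = 0.0055) and -0.81 (0.0039). The interferon receptor genes Ifnar1 and Ifnar2 were higher, like Ifngr2, at 0.71 (limma adjusted p = 0.0019) and 1.30 (0.0021). Of the 4 Janus kinase genes, Jak2 rose (log2 change 1.05, limma adjusted p = 0.0081). Jak1, Jak3 and Tyk2 had log2 changes of 0.19, 0.41 and 0.13 and did not pass.

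Of the 6 STAT genes followed 4 rose, namely Stat2 (log2 change 2.02), Stat4 (1.97), Stat5a (1.77) and Stat5b (0.78), while Stat3 (0.74, limma adjusted p = 0.0755) and Stat6 (0.07), named after their values were seen, did not pass. For genes known as STAT3 targets the median log2 change was 1.23 with 6 of 9 higher and 1 lower, including Bcl3 (1.76), Junb (1.55), Pim1 (1.23), Mcl1 (0.96) and Fos (-0.94). Genes known as STAT5 targets, the class to which Cish and Socs2 belong, went in both directions. Their median was -0.23, with Osm (2.10), Pim1 (1.23) and Ccnd2 (0.98) higher and Myc (-1.79) and Id1 (-1.87) lower.

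The elongin, cullin and partner genes through which SOCS boxes recruit ubiquitin ligases gave 0 calls of 9 under limma. At an unadjusted p under 0.05 there were 3, and limma-voom on the recovered reads gave 0. Without nanoparticle library 1, 6 of the 9 were called, all higher. That fit called 64.8% of all tested genes in either direction, and 52.9% of its calls were higher. The median log2 change of the 9 genes was then 0.71 in place of 0.40. Other proteins with a SOCS box were mixed, with 4 of 18 higher (Asb11, Spsb1, Spsb4 and Asb6) and 1 lower, Asb2, which had a log2 change of -2.82 (limma adjusted p = 0.0031). Of 15 other negative regulators of the pathway, 5 rose and 1 fell. Usp18, the interferon receptor brake, had the largest log2 change of these at 4.72, followed by Lgals9 (2.13), Ptpn2 (0.68) and Pias4 (0.50) among those named, and Sh2b3 was lower (-0.51).

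**Figure D5:**
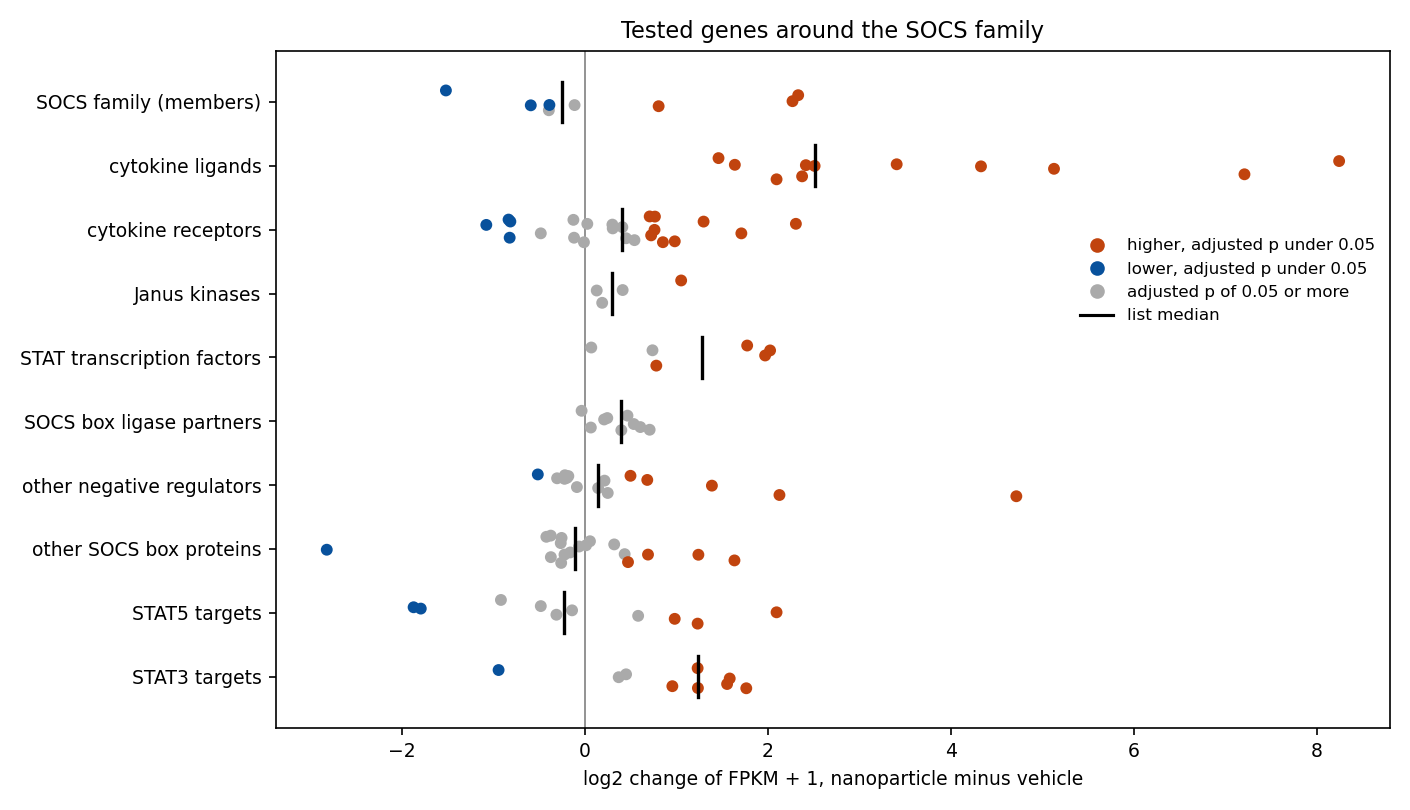
Log2 change of FPKM + 1 (nanoparticle minus vehicle) of each tested gene in the SOCS family and in the lists around it, coloured by limma call, with the list median as a bar. The 6 STAT genes lie to the right of 0 with a median of 1.28, and the SOCS family spreads to both sides of 0.

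Markers of the labelled cell type were present in part. The dendritic cell genes Itgax and H2-Ab1 were at 449 ± 7.16 and 1002 ± 28.2 FPKM in vehicle (SD, n = 3 each), while Flt3, Siglech and Xcr1 were under 1 FPKM in all vehicle libraries. Summed over 13 dendritic cell markers, vehicle libraries held 6148 to 6589 FPKM and nanoparticle libraries 3445 to 7764 FPKM. Cd74, H2-Ab1 and H2-Aa made up most of this sum, with vehicle means of 4116, 1002 and 766 FPKM. Past the threshold, 1 marker was higher and 4 were lower. Of these 4, Cd209a had passed the filter through the vehicle libraries alone. The 12 macrophage markers summed to 1184 to 1309 and 1515 to 1878 FPKM (4 higher, 4 lower), and the 15 neutrophil markers to 276 to 309 and 246 to 344 FPKM (3 higher, 1 lower). Of these 3, Lcn2 and Csf3r had passed the filter through the nanoparticle libraries alone. Mean Lcn2 was 0.234 FPKM in vehicle and 50.4 FPKM with nanoparticles, S100a8 34.9 and 83.1 FPKM, and Mmp8, the largest part of the neutrophil sum, 245 and 130.05 FPKM, while Ly6g, Elane and Mpo were under 1 FPKM throughout. Mast cell and basophil markers summed to 3.93 to 6.16 and 10.3 to 26.1 FPKM (1 higher, 1 lower). The higher one was Hdc, which had also passed the filter through the nanoparticle libraries alone. Its means were 0.338 and 12.5 FPKM, with 24.1 FPKM in nanoparticle library 1. The lower one was Gata2, with means of 2.88 and 1.31 FPKM. These single markers were named after their values were seen. T cell markers summed to 1.75 to 2.25 and 1.21 to 1.73 FPKM. Those of B cells and natural killer cells summed to at most 0.394 FPKM in any library. The part of these markers in the SOCS family values was not tested.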

How the data were processed

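RNA was sequenced from 3 vehicle and 3 nanoparticle libraries. The authors deposited 2 tables of 23398 genes whose 140388 values are identical. The unit, FPKM deposited by the authors, was inferred from the values, since no header or label names it. Per the submitters' processing notes, STAR 2.5 and HTSeq were among the tools, and mm10 among the builds. With merged exon lengths of GENCODE M21 (GRCm38), 95.8% to 96.1% of values above 0 became whole reads (within 0.01), and other lengths that did so were found for all 575 remaining genes with a mean of at least 1 FPKM, Socs5 and Socs6 among them. The library scales matched median-of-ratios factors closely, and a change common to most genes cannot be seen on such a scale. PCR copies were not told apart, and counting errors of the members (0.888% to 7.83%) cover counting alone.

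Genes that reached 1 FPKM in 3 or more libraries were tested with limma 3.58.1 in R 4.3.3 on log2(FPKM + 1), with group as the single term, a mean-variance trend and Benjamini-Hochberg adjustment over 10682 genes at 0.05. This scale understates changes of low genes. The fit was tested on reads simulated with the same spread in every library, which does not cover a library that stands apart. Confidence intervals are limma's, at 95%. Alternatives were other pseudocounts, filters, scalings, moderation, library weights, a replicate block, each library left out, and limma-voom and principal transcript lengths, both chosen after seeing the data. Members and lists were chosen with earlier results of these data known. Genes named are the members, up to 5 called genes per list by adjusted p, whole lists of up to 4, and 3 similar genes per member, with exceptions stated. Python 3.11.15, numpy 2.4.6, pandas 2.3.3 and matplotlib 3.10.9 were used. Proteins are not shown, and 1 item of the lists is not reported here.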

Additional observations from a re-analysis of the deposited data

How the results depend on the processing

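Socs1, Socs3 and Socs6 kept direction and call in every alternative, and no member reversed in any. Socs5 and Socs7 were not tested at a filter of 5 FPKM. With each library left out in turn, log2 changes ran from -0.49 to -0.21 for Socs2, -0.28 to -0.012 for Socs4, -0.68 to -0.48 for Socs5 and -0.43 to -0.36 for Socs7, and called genes from 2141 to 6923 (2226, 2188 and 2141 without vehicle library 1, 2 or 3, and 6923 without nanoparticle library 1). Library weights, estimated gene by gene because the default method did not converge, gave nanoparticle library 1 a weight of 0.0438, so this fit is close to leaving it out. They gave 7237 calls (3773 higher, 3464 lower), Socs2 at -0.22 and Socs4 at -0.30, both past the threshold. Equal FPKM sums gave Socs2 -0.82 (past) and Cish 0.35 (not past), with 881 genes higher and 4306 lower, and equal read totals gave Socs2 -0.70 (past), with 1108 and 3613. These scalings shift all genes by construction. For the other changes the cause was not tested. The 5 FPKM filter, which tested 6351 genes, gave 1475 higher and 975 lower genes. Replicate numbers pair no labelled source, and deviations of same-numbered libraries correlated at 0.0654, 0.113 and -0.0577, with vehicle library 3 not closest to its own number. The replicate block gave 2785 genes, with Socs7 at -0.39 not past the threshold (limma adjusted p = 0.0753) and the other members' calls the same. Pathway genes past the threshold, 50, ran from 42 to 78 with a library left out (78 without nanoparticle library 1) and were 77 with library weights.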

Other observations

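The ratio of Socs1 to Socs6 in FPKM was alike in the 3 nanoparticle libraries although each gene alone was not. It was 1.13, 1.30 and 1.28 in vehicle libraries 1 to 3 and 21.7, 20.2 and 20.4 in nanoparticle libraries 1 to 3. The ratio of Socs3 to Socs6 was 2.51, 3.04 and 3.004 in vehicle and 89.8, 38.1 and 33.6 with nanoparticles. The ratio of Socs3 to Cish was 1.95, 2.07 and 1.97 in vehicle and 6.64, 5.38 and 5.29 with nanoparticles. These pairs were chosen after their values were seen, and no test was made.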
